A study of Danio rerio with 15 samples.

Results

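The period genes of the zebrafish circadian clock are per1a, per1b, per2 and per3, and all 4 were found by symbol among the 36351 genes of the deposited tables. Their transcripts were measured by mRNA sequencing of whole larvae of the AB wild-type strain (Danio rerio) that had been kept in water with a test compound or solvent for 3 days, between 24 and 100 hours post fertilization, and were collected at 100 hours. One group received 50 nM TCPMOH, tris(4-chlorophenyl)methanol, another received 50 nM TCPM, tris(4-chlorophenyl)methane, and the control group received 0.01% dimethyl sulfoxide (DMSO) by volume. TCPMOH has a hydroxyl group on the central carbon where TCPM has a hydrogen. Each group comprised 5 samples of 8 to 10 pooled larvae, from 3 experimental replicates and 20 breeding pairs, but the sources used here do not tie samples to those replicates, nor do they state the lighting or the clock time at collection.

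Period proteins form the repressing arm of the circadian feedback loop. The transcription factors Clock and Bmal bind E-box motifs and switch on period and cryptochrome genes, whose proteins enter the nucleus together and block Clock and Bmal until casein kinase 1 has marked the period proteins for destruction. In zebrafish, cells of most tissues sense light directly, and light induces per2, whereas per1a, per1b and per3 are known chiefly as rhythmic genes under E-box control. per1a and per1b are fish duplicates of the ancestral per1 gene.

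The authors' tables, 1 per compound, hold DESeq2 results per gene and no values per library, so the level in each sample cannot be shown. The values of genes with a lone read gave 8 libraries per fit, 4 of the compound and 4 of DMSO, with the DMSO libraries shared between the fits, so 1 of 5 samples per group entered no fit, and the sources do not name it. Per library, 18.1 to 25.7 M reads were assigned to genes in the TCPMOH fit and 18.2 to 25.9 M in the TCPM fit, as estimated from the size factors. Group means were recovered from the base mean, which is the mean of reads scaled by size factors, and the fold change before shrinkage, since the deposited fold changes had been pulled toward 0 by the fit. They are called mean signal below and were put on the scale of the TCPM table. The spread given beside them is the SD between libraries that the fit's own dispersion implies, not an observed one. For DMSO it was taken from the TCPM fit, and the TCPMOH fit can imply another value. The DMSO mean of each period gene could be recovered from either table, and the TCPMOH table's value differed from the TCPM table's by 0.019% for per2, -0.020% for per1a, -0.012% for per1b and -0.0061% for per3.

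per2 rose with both compounds, per1a fell with both, per1b fell with TCPMOH, and per3 passed the test with neither. A gene was called at an adjusted p under 0.05 in the authors' DESeq2 test. Of the 4 period genes 3 were called with TCPMOH, against 2.55% of 21491 genes tested (1.54% higher and 1.00% lower), and 2 were called with TCPM, against 1.89% of 22223 genes (1.27% higher and 0.616% lower). Both comparisons use the same DMSO libraries, so their results are not independent of each other.

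**Figure D1:**
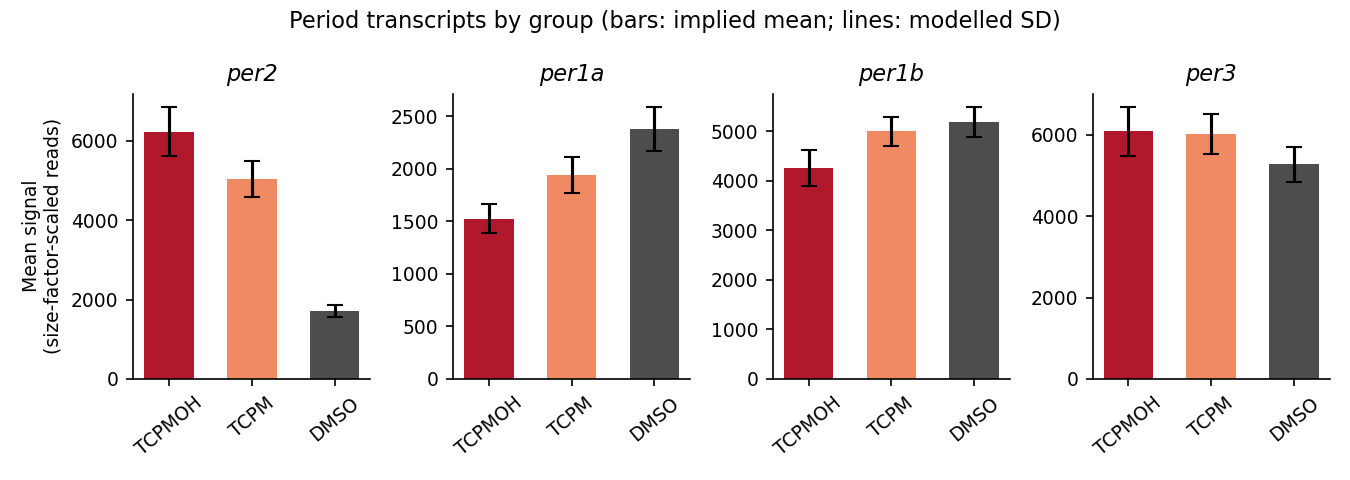
Mean signal (reads scaled by size factors, vertical axes from 0, 1 axis per gene) of each period transcript in TCPMOH, TCPM and DMSO larvae, 4 libraries per group. Bars are implied group means and lines the SD implied by the fitted dispersion, with DMSO taken from the TCPM fit. per2 stands at 6231 and 5044 in the treated groups and 1709 in DMSO, whereas per1a is lowest in TCPMOH larvae at 1528.

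per2 (Entrez gene 140633), the light-induced repressor, had a mean signal of 6231 ± 619.7 in TCPMOH larvae, 5044 ± 459 in TCPM larvae and 1709 ± 159 in DMSO larvae (modelled SD, n = 4 each). Before shrinkage this was 3.64-fold higher with TCPMOH (95% interval 3.17 to 4.19) and 2.95-fold higher with TCPM (2.60 to 3.35). The authors' deposited table puts its log2 fold change at 1.59 ± 0.088 (SE) for TCPMOH (DESeq2 adjusted p = 8.27e-70) and 1.31 ± 0.079 (SE) for TCPM (DESeq2 adjusted p = 4.76e-58). By p-value per2 ranked 2 of 31941 genes with TCPMOH and 2 of 32116 with TCPM. Among the 16488 genes whose base mean reached 100 in both tables, 1 gene had a larger positive log2 fold change with TCPMOH and 0 genes had one with TCPM. Both treated means lay farther from the DMSO mean than the modelled spread within any group, and the order was TCPMOH, TCPM, DMSO from high to low.

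per1a (Entrez gene 563926), a repressor of the same loop, had a mean signal of 1528 ± 135 in TCPMOH larvae, 1940 ± 169.8 in TCPM larvae and 2382 ± 207 in DMSO larvae (modelled SD, n = 4 each). Its level was thus 35.9% lower with TCPMOH than with DMSO (fold before shrinkage 0.641, 95% interval 0.568 to 0.724) and 18.6% lower with TCPM (0.814, 0.722 to 0.919). The order was the reverse of that of per2, with DMSO larvae highest. Its log2 fold change in the authors' deposited table was -0.57 ± 0.079 (SE) for TCPMOH (DESeq2 adjusted p = 2.2e-10) and -0.25 ± 0.076 (SE) for TCPM (DESeq2 adjusted p = 0.0478). Among those 16488 genes, 37 had a more negative log2 fold change with TCPMOH and 190 with TCPM. The TCPM call was just inside the threshold and was lost, at an adjusted p of 0.0689, when p-values were adjusted over every gene with a p-value.

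per1b (Entrez gene 406204), the duplicate of per1a, had a mean signal of 4254 ± 367 in TCPMOH larvae, 4993 ± 296 in TCPM larvae and 5178 ± 307 in DMSO larvae (modelled SD, n = 4 each). The TCPMOH fit implied a larger DMSO SD, 445. The level of per1b was 17.8% lower with TCPMOH (fold before shrinkage 0.822, 95% interval 0.729 to 0.926), and the TCPM and DMSO means lay closer together than their modelled spread. In the authors' deposited table it stood at -0.25 ± 0.078 (SE) for TCPMOH (DESeq2 adjusted p = 0.0496) and -0.05 ± 0.056 (SE) for TCPM (DESeq2 adjusted p = 0.932). With TCPM the fold before shrinkage was 0.964, with a 95% interval of 0.888 to 1.05. The TCPMOH call did not hold when p-values were adjusted over every gene with a p-value (adjusted p = 0.0733) or when fold changes were centred on the median gene (adjusted p = 0.0532).

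per3 (Entrez gene 58107), the remaining member of the family, had a mean signal of 6086 ± 599 in TCPMOH larvae, 6018 ± 489 in TCPM larvae and 5275 ± 429 in DMSO larvae (modelled SD, n = 4 each). The treated means differed from each other by less than the modelled spread. Before shrinkage the fold over DMSO was 1.15 with TCPMOH (95% interval 1.01 to 1.32) and 1.14 with TCPM (1.02 to 1.28), with unadjusted p-values of 0.0401 and 0.0219 in the authors' DESeq2 test. After adjustment over all genes neither passed, with per3 listed in the authors' deposited table at 0.18 (standard error 0.086, DESeq2 adjusted p = 0.468) for TCPMOH and 0.17 (standard error 0.072, DESeq2 adjusted p = 0.390) for TCPM.

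**Figure D2:**
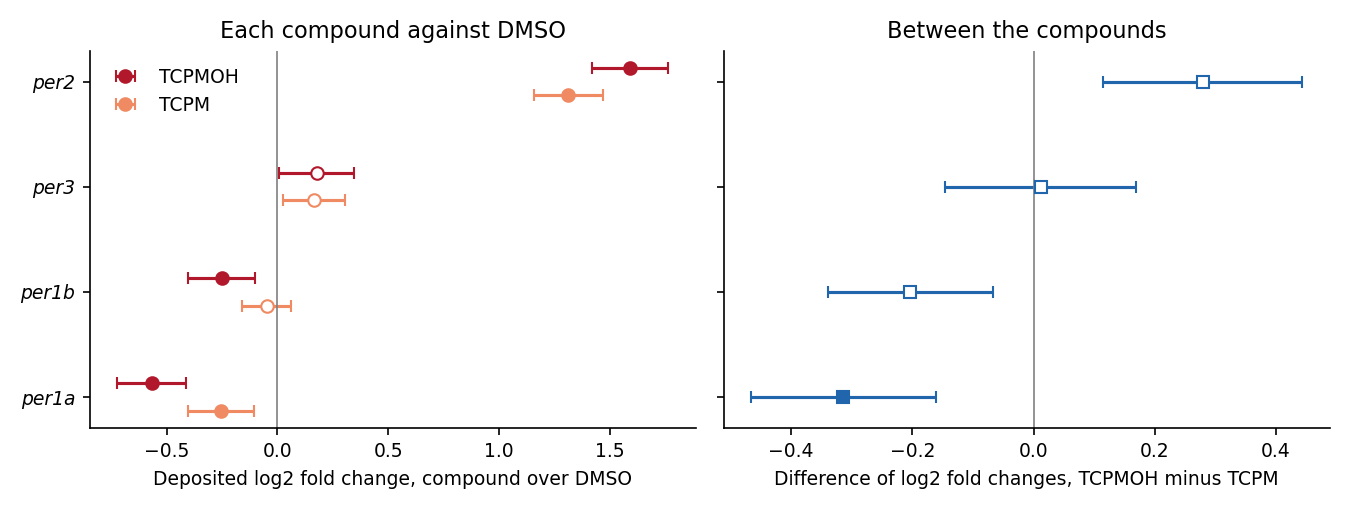
Left, deposited log2 fold changes of the period genes for TCPMOH and TCPM over DMSO; right, the difference of those log2 fold changes, TCPMOH minus TCPM. Lines are 95% intervals and filled symbols passed at an adjusted p under 0.05; per1a is the filled symbol on the right, at -0.31.

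The response to TCPMOH was then set against that to TCPM, at the same dose of 50 nM and the same exposure, to see whether larvae given the hydroxylated compound differed in period transcripts. This was 1 pair of compounds, tested over 22734 genes, of which 0.453% were called (0.242% higher and 0.211% lower with TCPMOH). Of the 4 period genes, per1a was called and was lower with TCPMOH. The difference of its log2 fold changes, TCPMOH minus TCPM, was -0.31 ± 0.078 (SE, 95% interval -0.47 to -0.16, adjusted p = 0.0155 from the DESeq2 estimates). Before shrinkage the level in TCPMOH larvae was 0.788 of that in TCPM larvae (0.698 to 0.889), with an adjusted p of 0.0300 in the same test. That value was computed too because the deposited fold changes had been shrunk by unequal priors (SD 0.248 for TCPMOH and 0.216 for TCPM). The test assumes a correlation of 0.5 between the fold changes through their shared DMSO libraries, and per1a was not called with a correlation of 0.4 (adjusted p = 0.0655). The correlation computed for per1a from the modelled variances was 0.495, with which its adjusted p was 0.0164. Each fit models the same dispersion in both groups, so such values lie near 0.5 for most genes (quartiles 0.496 and 0.503). They are therefore no check of the assumed 0.5.

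The other period genes did not pass this test. per2 differed by 0.28 ± 0.084 (SE, 95% interval 0.12 to 0.44, unadjusted p = 0.00084, adjusted p = 0.136 from the DESeq2 estimates). Before shrinkage its level in TCPMOH larvae was 1.23 times that in TCPM larvae (1.08 to 1.41), with an adjusted p of 0.260 in the same test. With a correlation of 0.6 the adjusted p of per2 was 0.0313. The value computed for the gene was 0.511, near 0.5 for the reason given for per1a. per1b differed by -0.20 (95% interval -0.34 to -0.07, adjusted p = 0.365), or 0.852 of the TCPM level (0.767 to 0.947). For per3 the difference was 0.01 (95% interval -0.15 to 0.17, adjusted p = 1.000), and the ratio before shrinkage was 1.01 with an interval from 0.891 to 1.15.

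**Figure D3:**
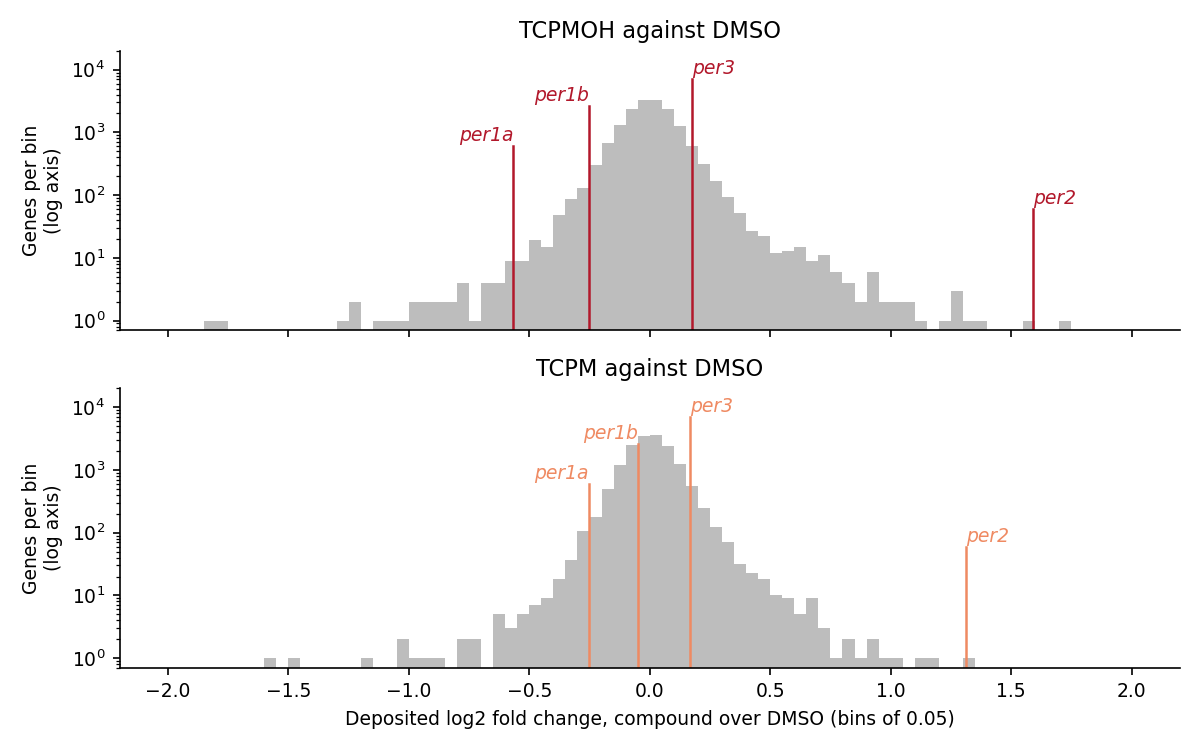
Histograms of the deposited log2 fold change over DMSO of the 16488 genes whose base mean reached 100 (bins of 0.05, log vertical axis), with vertical lines at the period genes. per2 lies at the far right of both panels, per1a in the left tail, and per1b and per3 nearer to or within the bulk.

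The rule for likeness named the genes with the nearest pair of log2 fold changes, by Euclidean distance over the 2 comparisons, which share their DMSO libraries. per2 lay at the upper end of the fold changes in both comparisons, where few genes lie. Within a distance of 0.2 was 1 of 16487 genes. That gene was cry5, a light-dependent DNA repair photolyase, at a distance of 0.19, which the authors' deposited table lists at 1.71 for TCPMOH and 1.17 for TCPM. Next came si:ch211-161h7.5 at 0.35, the DNA damage recognition gene xpc at 0.41, lonrf1 at 0.48 and the retinol dehydrogenase gene rdh5 at 0.49. per1a had more company, with 62 genes within 0.2. The nearest were BX842701.1 at 0.01, dbpb, a PAR bZIP factor of the clock's output, at 0.02, the cell cycle inhibitor gene cdkn1a and frmpd1 at 0.03 each, and dusp5, a phosphatase gene that limits Erk signalling, at 0.06. These distances are below the standard errors of the per1a fold changes (0.079 with TCPMOH and 0.076 with TCPM). The order among near genes is therefore not resolved. The neighbourhood of per1b held 4036 genes within 0.2, so likeness to it singles out little. Its nearest genes were si:ch73-334d15.4, frmpd2, zgc:172051, phospho1 and myzap, at distances of 0.01 to 0.02.

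The other genes of the clock were read from fixed lists, beginning with the cryptochromes, which bind period proteins in the repressing complex. Of 8 measured cryptochrome and ciart genes, 3 rose with TCPMOH and 4 with TCPM, and none fell in the DESeq2 test (0 lower at a p under 0.05 before adjustment). Over all genes tested, 1.54% were called higher and 1.00% lower with TCPMOH, and 1.27% and 0.616% with TCPM. Before adjustment, p was under 0.05 for 2165 of 31941 genes with TCPMOH and 2010 of 32116 with TCPM, in both directions together. These shares also apply to the lists below. Median log2 fold changes of the list were 0.19 for TCPMOH and 0.21 for TCPM, beside medians of -0.0024 and 0.00028 over all genes tested. cry1bb was higher at 1.13 with TCPMOH (DESeq2 adjusted p = 3.48e-26) and 0.60 with TCPM (adjusted p = 1.99e-07) in the authors' deposited table, and the difference between the compounds passed too, at 0.53 (adjusted p = 6.83e-05). cry1aa stood at 0.45 with TCPMOH and 0.36 with TCPM and cry1ba at 0.56 and 0.29, all 4 values called in the authors' deposited table. cry1ab was called with TCPM alone, at 0.24 (adjusted p = 0.0313), against 0.15 with TCPMOH (adjusted p = 0.452) in the authors' deposited table, and the difference between the compounds did not pass (adjusted p = 1.000).

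Log2 fold changes of transcripts for the enzymes that mark period and cryptochrome proteins were mostly near 0. None of 13 tested kinase, ubiquitin ligase and deubiquitinase genes was called with TCPMOH in DESeq2, where 1 was higher and 0 lower at a p under 0.05 before adjustment. Of all genes with a p-value, 2165 of 31941 passed that threshold with TCPMOH, in both directions together. The list's median with TCPMOH was 0.0040. With TCPM 1 rose, the deubiquitinase gene usp2b at 0.27 (adjusted p = 0.00708), against 0.05 with TCPMOH (adjusted p = 0.966), in the authors' deposited table, and the difference between the compounds did not pass (-0.21, adjusted p = 0.396). The list's median with TCPM was 0.05, and 1.27% of all genes tested were called higher. Among 8 genes for E-box activators and their Bhlhe40 and Bhlhe41 repressors, npas2, which encodes a partner of Bmal, was called and rose, at 1.099 with TCPMOH (adjusted p = 2.73e-24) and 0.73 with TCPM (adjusted p = 1.16e-14) in the authors' deposited table. For npas2 the difference of 0.37 between the compounds passed (adjusted p = 0.0232). The medians of that list were -0.03 with TCPMOH and 0.04 with TCPM. Of all genes tested, 1.54% were called higher with TCPMOH and 1.27% with TCPM.

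Rev-erb proteins repress Bmal genes and Ror proteins activate them. Of 11 measured genes of the pair of families 3 fell with TCPMOH and 1 with TCPM, and none rose in DESeq2 (1 higher in each at a p under 0.05 before adjustment), with medians of -0.07 and -0.03. Of all genes tested, 1.00% were called lower with TCPMOH and 0.616% with TCPM. The Rev-erb gene nr1d2a was at -0.68 with TCPMOH (adjusted p = 5.93e-19) and -0.28 with TCPM (adjusted p = 0.00474) in the authors' deposited table. nr1d1 was at -0.38 with TCPMOH (adjusted p = 1.5e-06) and -0.03 with TCPM (adjusted p = 0.966), and nr1d4b at -0.75 (adjusted p = 1.67e-07) and -0.27 (adjusted p = 0.243), in the authors' deposited table. As for per1a, the difference between the compounds passed for all 3, at -0.40 for nr1d2a (adjusted p = 1.69e-05), -0.34 for nr1d1 (adjusted p = 4.16e-05) and -0.48 for nr1d4b (adjusted p = 0.00800). In that test 0.211% of all genes were called lower with TCPMOH. The remaining Rev-erb genes and all Ror genes were called neither against DMSO nor between the compounds.

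The D-box is bound by activating PAR bZIP factors and repressing Nfil3 factors. Of 10 tested genes 2 rose and 3 fell with TCPMOH, and 2 rose and 1 fell with TCPM, with medians of -0.13 and -0.09. Of all genes tested, 1.54% rose and 1.00% fell with TCPMOH, and 1.27% rose and 0.616% fell with TCPM. tefa was at 0.77 with TCPMOH (adjusted p = 3.61e-39) and 0.49 with TCPM (adjusted p = 8.27e-16), and dbpb at -0.57 (adjusted p = 5.97e-16) and -0.28 (adjusted p = 0.00129), in the authors' deposited table. Both differed between the compounds, tefa by 0.28 (adjusted p = 0.000428) and dbpb by -0.30 (adjusted p = 0.00171). In the authors' deposited table nfil3-6 was at 0.37 with TCPMOH and 0.36 with TCPM, both called, while hlfb at -0.35 and dbpa at -0.25 were called with TCPMOH alone. For dbpa and hlfb the difference between the compounds did not pass (adjusted p = 1.000 and 0.702).

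**Figure D4:**
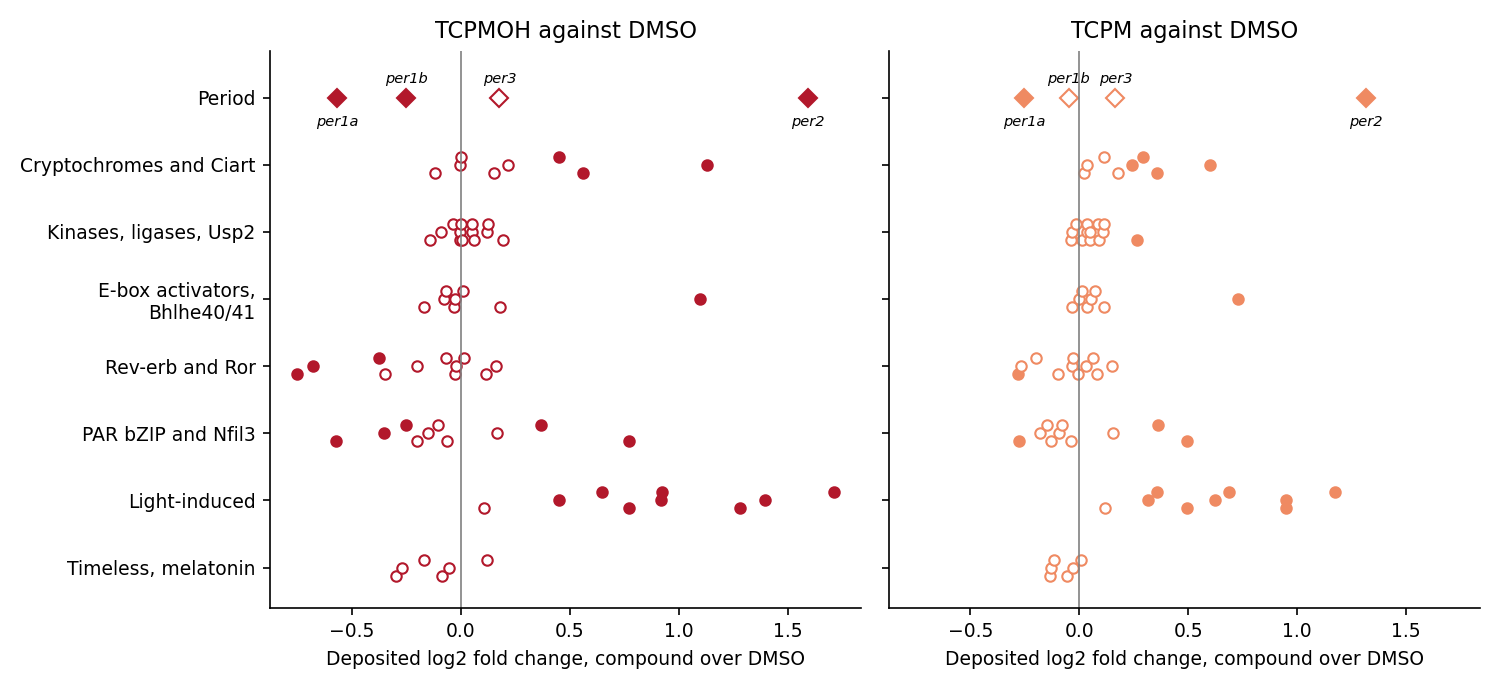
Deposited log2 fold changes over DMSO of the period genes (diamonds) and of the genes of each clock list (circles), for TCPMOH on the left and TCPM on the right, filled where the adjusted p was under 0.05. All 8 filled circles of the light-induced list lie right of 0 in each panel, and the filled circles of the Rev-erb and Ror list lie left of it.

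The list that held the most called genes was that of genes known to be induced by light in zebrafish. Of 9 genes 8 rose with each compound and none fell in DESeq2 (0 lower at a p under 0.05 before adjustment), with medians of 0.92 for TCPMOH and 0.62 for TCPM. Of all genes tested, 1.54% were called higher with TCPMOH and 1.27% with TCPM. The list was assembled with earlier results of these samples known, so its direction is not independent evidence. Beside cry5, tefa and cry1aa, the authors' deposited table gives 1.40 with TCPMOH and 0.95 with TCPM for xpc, 1.28 and 0.95 for lonrf1, and 0.92 and 0.62 for the photolyase relative cry-dash. Between the compounds 5 of the 9 were higher with TCPMOH, against 0.242% of all genes tested. The list's median difference was 0.30 beside -0.0013 over all genes tested. Those 5 were cry5 at 0.54 (adjusted p = 1.94e-09), xpc at 0.45, lonrf1 at 0.33, cry-dash at 0.30 and tefa at 0.28. None of 6 genes of the timeless complex and of melatonin synthesis was called in DESeq2, with 2 lower at a p under 0.05 before adjustment with TCPMOH and 0 with TCPM, and with medians of -0.13 and -0.09. Of all genes with a p-value, 2165 of 31941 passed that threshold with TCPMOH, in both directions together.

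The modelled spread of the period genes lay within that of other abundant genes. The coefficient of variation between pools that the fits imply was 9.87% for per2, 8.43% for per1a, 8.48% for per1b and 9.76% for per3 in the TCPMOH fit, beside a median of 8.05% over 3791 genes whose base mean reached 1000. In the TCPM fit it was 8.99%, 8.45%, 5.75% and 8.02% in the same gene order, beside a median of 6.78% over 3977 genes. The modelled spread of per1b was thus smaller in the TCPM fit than in the TCPMOH fit. The gene was called with TCPMOH and not with TCPM.

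**Figure D5:**
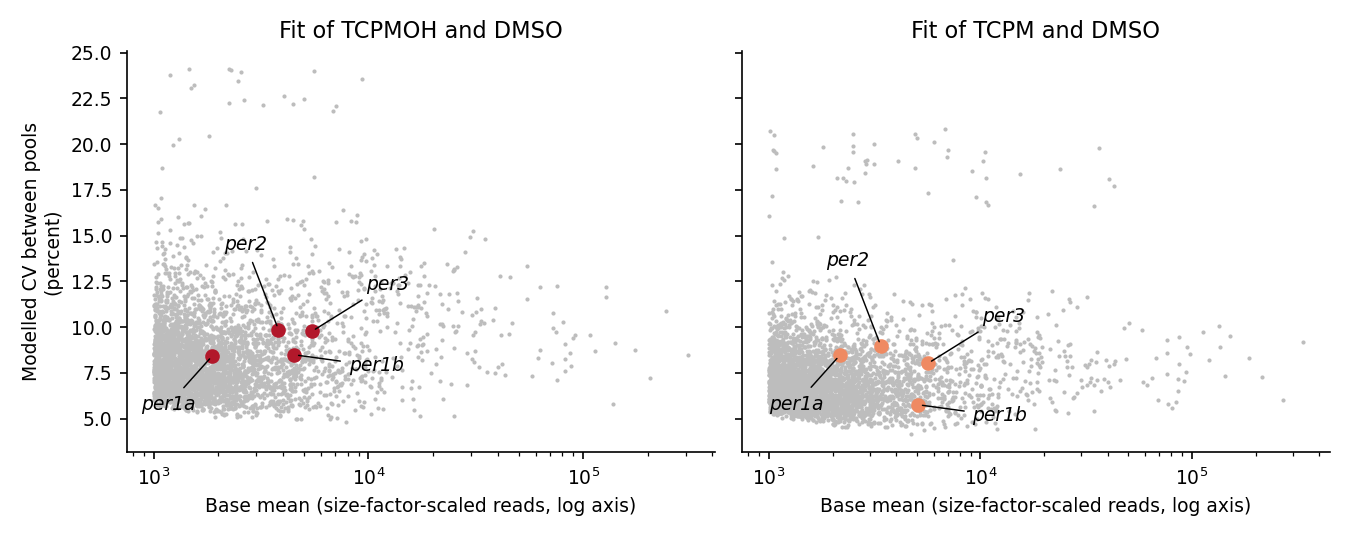
Coefficient of variation between pools implied by each fit (percent) against base mean (log axis) for genes whose base mean reached 1000, with the period genes marked. The period genes lie within the cloud of other genes, between 5.75% and 9.87%.

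Whole larvae mix many tissues, and more or fewer cells of a type cannot be told apart from more or less RNA per cell. Markers of 9 tissues were all detected, with 0 of the 39 at 0. Of 37 tested, 2 were higher and 1 lower with TCPMOH, against 1.54% and 1.00% of all genes tested (DESeq2 adjusted p under 0.05). With TCPM 5 were higher and 0 lower, against 1.27% and 0.616%. At a p under 0.05 before adjustment, 4 intestine markers and 1 retina marker were higher with TCPMOH, and 1 retina and 1 pineal marker lower. With TCPM 4 intestine, 3 exocrine pancreas, 3 erythrocyte, 2 lens and 1 retina marker were higher, and 1 retina marker lower, at that threshold. Of all genes with a p-value, 2165 of 31941 passed it with TCPMOH and 2010 of 32116 with TCPM, in both directions together. The summed signal of 8 retina photoreceptor markers was 98776 in TCPMOH larvae, 99760 in TCPM larvae and 99102 in DMSO larvae, and that of 4 pineal photoreceptor markers was 1681, 1746 and 1877 in the same group order. The pineal sum was mostly otx5, at a base mean of 1675 in the TCPM fit, against 101 for exorh, 33.7 for aanat2 and 1.79 for parapinopsina. Within the retina list arr3a, a cone arrestin gene, was called higher with both compounds, and opn1sw2, the blue cone opsin gene, lower with TCPMOH at -0.34, against -0.17 with TCPM (adjusted p = 0.256), in the authors' deposited table. For opn1sw2 the difference between the compounds did not pass (adjusted p = 0.620). Summed intestine markers were 30.3% higher with TCPMOH and 33.8% higher with TCPM than in DMSO larvae. Summed erythrocyte markers were 5.96% and 39.8% higher, exocrine pancreas markers 8.96% and 27.4% higher and lens markers 14.6% and 16.1% higher, each with TCPMOH and then TCPM. The sums themselves were not tested, and no pineal, pancreas or lens marker was called with either compound. Most erythrocyte signal came from hbbe1.1 (base mean 2507 in the TCPM fit), which was not called with TCPM (DESeq2 adjusted p = 0.252). The erythrocyte marker called with TCPM was hbae1.1, at a base mean of 132. Between the compounds 0 of the 37 markers passed, with 2 erythrocyte markers and 1 retina marker lower with TCPMOH at a p under 0.05 before adjustment. How many of all genes lay under 0.05 in that test was not counted. Sums of the muscle, liver and neuron lists lay between 6.54% lower and 9.35% higher than in DMSO larvae. The part of these differences in marker signal in the period values was not tested.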

How the data were processed

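The members, gene lists and tests were chosen with earlier results of these data known. Per the submitters' processing notes, FastQC, cutadapt, STAR, featureCounts and DESeq2 were run, and per the file headers gene models came from GTF version V4.3.2. The sources used here give no tool versions, genome build or counting settings, so reads shared by the duplicates per1a and per1b cannot be assessed.

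Per the file headers each gene has a base mean (the deposited signal), a deposited log2 fold change and standard error, a deposited Wald score, and deposited p-values before and after adjustment. They hold 0 columns of per-sample values, so no count test was refitted. Since nothing shows that pools came from separate clutches, p-values measure the spread between pools.

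Genes with a lone read took 8 base means per table. Those of 4 libraries, 654 genes for TCPMOH and 548 for TCPM, included 0 genes without a read in the other table, which marks the shared DMSO libraries. For the compound libraries 292 of 526 and 412 of 627 were at 0 there. Lone reads in DMSO went with positive deposited fold changes, so signs were turned to compound over DMSO. The deposited fold changes carry a normal prior (SD 0.248 for TCPMOH and 0.216 for TCPM, from the largest standard errors), which was undone where stated. TCPMOH minus TCPM was tested on the deposited log2 fold changes with a correlation of 0.5 through the shared DMSO libraries. The test gave a two-sided normal p, Benjamini-Hochberg adjusted over genes whose base mean reached 10 in each table. The procedure was checked on simulated data in which changed genes responded to TCPMOH alone. That check does not cover genes that respond to both compounds, such as per2 and per1a, whose fold changes are shrunk by unequal priors.

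Named were the members, up to 5 called genes per clock list by smallest adjusted p, and the 5 nearest genes per called member. List symbols without a row were matched through RefSeq synonyms. Alternatives were another adjustment set, a base mean minimum of 50, centring, other correlations and no shrinkage. Python 3.11.15, scipy 1.17.1 and pandas 2.3.3 were used.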

Additional observations from a re-analysis of the deposited data

Results flagged for a closer look

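For per1a the effects of TCPMOH and TCPM against DMSO differed by the test of the difference itself, at -0.31 in log2, TCPMOH minus TCPM (adjusted p = 0.0155 from the DESeq2 estimates). Both effects had the same sign, -0.57 with TCPMOH and -0.25 with TCPM in the authors' deposited table.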

How the results depend on the processing

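Each of the 4 period genes kept its direction in all 64 alternative values, but most of these could not change it. Other adjustment sets, base mean minimums and correlations reuse the same fold change. Undoing shrinkage against DMSO only rescales the fold change and its standard error together. The directions are therefore no measure of robustness, save for centring and the difference before shrinkage. Calls changed in 6 of the 64 alternative values. Adjusting over every gene with a p-value ended the calls of per1a with TCPM (-0.25, adjusted p = 0.0689) and per1b with TCPMOH (-0.25, adjusted p = 0.0733), and more genes share the adjustment there. Centring ended that of per1b with TCPMOH (-0.25, adjusted p = 0.0532). For TCPMOH minus TCPM, a correlation of 0 gave 15 called genes and of 0.6 gave 172, against 103 with 0.5. The per1a difference of -0.31 was not called with 0 (adjusted p = 1.000) or 0.4 (adjusted p = 0.0655), and the per2 difference of 0.28 was called with 0.6 (adjusted p = 0.0313). A smaller correlation widens the standard error. Correlations computed per gene, an alternative chosen after seeing the data, were 0.495 to 0.511 for the period genes, and gave 107 called genes. They lie near 0.5 because each fit models the same dispersion in both groups, so they do not check the assumed 0.5. The calls of per2 against DMSO held in every alternative, with adjusted p values up to 1.23e-69 for TCPMOH and 6.89e-58 for TCPM. With no values per library, fits to counts and leaving out single libraries were not run. No paired analysis was possible because the samples carry no number shared between groups and the tables no column per sample.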

Other observations

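The genes next to each period gene were read in RefSeq order (assembly GRCz12tu, used for gene order only), 2 protein-coding genes on each side, a rule set after the period values were known. Beside per2, itm2cb was at -0.28 with TCPMOH (DESeq2 adjusted p = 0.0296) and -0.08 with TCPM (adjusted p = 0.894) in the authors' deposited table, opposite in sign to per2. The next gene on that side, hes6, a bHLH factor gene, was at -0.14 and -0.05 and was not called. On the other side si:ch211-195j11.30 had a base mean of 10.3 in the TCPM table and no adjusted p, and the next gene, LOC141378916, was not among the genes measured.

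Beside per1a, si:ch211-237l4.6 rose with both compounds, at 0.47 with TCPMOH (DESeq2 adjusted p = 0.000595) and 0.38 with TCPM (adjusted p = 0.00281) in the authors' deposited table, while per1a fell. The other genes beside per1a were pcolcea at -0.13 and -0.10, vamp2 at 0.0013 and 0.05, and and3 at -0.12 and -0.10, for TCPMOH and TCPM in this order, and were not called in the authors' deposited table.

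In that annotation dthd1 overlaps per1b, and its base mean was 15.5 in the TCPM table against 5085 for per1b. The other neighbours of per1b and those of per3, vamp3 and camta1b among them, had log2 fold changes of -0.13 to 0.20, and none was called in the authors' deposited DESeq2 tables. Among them uts2b, beside per3, had a base mean of 10.2 in the TCPM table and no adjusted p with either compound.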
